A study of Bos taurus with 2 samples.

Results

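The array carried 456 probes for cattle microRNA genes, chosen as the non-control probes whose gene name is that of a microRNA or whose description holds the word microRNA, of 51280 non-control probes in all. They stood for 455 of the 31644 gene names on the array. Of the 456 probes, 455 were 60-base probes cut from annotated microRNA hairpins and printed as 2 spots each. The other probe, with 1 spot, bore the name MIR935 but was described as the transcript of an uncharacterized protein. Of the 455 hairpin entries, 449 were found in the RefSeq gene table of cattle, 10 of them under a changed symbol.

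A microRNA gene is transcribed, mostly by RNA polymerase II, into a long primary transcript that is capped and carries a poly(A) tail. DROSHA with DGCR8 cuts a hairpin out of it in the nucleus, DICER1 trims the hairpin in the cytoplasm, and an Argonaute protein holds the short mature microRNA, which has no poly(A) tail and pairs through its seed with target messenger RNAs. Spermatozoa are nearly silent in transcription and carry RNA left from spermatogenesis, with microRNAs, transfer RNA fragments and fragmented messenger RNAs among it.

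Total RNA was taken from spermatozoa of HF crossbred breeding bulls, 1 array for bulls of high and 1 for bulls of low fertility. Both groups were male, and the labels give neither the ages nor how many animals went into an array. RNA was extracted on a silica column with DNase treatment, and an oligo-dT primer carrying a T7 promoter started the complementary DNA, from which Cy3-labelled RNA was made. Priming of this kind reads polyadenylated RNA, so a hairpin probe can report the primary transcript, a host transcript that runs through the hairpin, or other RNA that holds the same letters. Which of these a signal came from cannot be told apart here, nor can fewer cells be told apart from less RNA per cell.

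With 1 array per group no difference between high and low fertility has a replicate check, and no test is given. The spread between the paired spots of a probe, which is technical, was 0.202 on the log2 scale for the difference between the arrays (SD, 120 measured members with 2 spots). By the scanner software's flag 33.2% of all non-control spots were well above background for high and 32.9% for low fertility, and no spot was saturated. Of 16 sperm genes listed as markers 10 were measured on both arrays, among them PRM1, TNP1, TNP2 and ODF1, while PRM2, AKAP4, SMCP, SPATA18, CRISP2 and SPACA1 were not. Before scaling the 10 had a summed signal of 968 for high and 1074 for low fertility. After it their median log2 difference was 0.10 (range -1.10 to 1.22). Of 7 leukocyte genes 6 were measured, PTPRC included, with a summed signal of 14885 for high and 25536 for low fertility before scaling and a median log2 difference of 0.01 after it (range -0.51 to 0.61). Of 3 testis somatic genes on the array 3 were measured, with a summed signal of 923 and 1370 and a median log2 difference of -0.07 (range -0.32 to -0.02). Such sums depend on the probes as well as on their RNA. KRT8 was measured of 5 epithelial genes and HBA of 3 erythroid ones. The part of such cells in the microRNA signals was not tested.

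The probes that the results turn on are shown here as printed on the array, 5′ to 3′, with the position of the hairpin on build Btau_4.0 where the files give one. The first set holds 5 of the 10 members with the highest signal, with capitals on every run of at least 6 bases made of G and C alone, since GC content went with detection. MIR2374 lay at chr22:60954477-60954553 on the plus strand, MIR2436 at chr5:90148367-90148441 on the minus strand, and MIR2305 at chr13:39508063-39508128 on the plus strand.
MIR2374: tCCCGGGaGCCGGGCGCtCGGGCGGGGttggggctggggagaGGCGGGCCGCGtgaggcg
MIR2436: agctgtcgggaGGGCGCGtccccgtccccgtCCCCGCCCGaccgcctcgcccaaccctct
MIR2305: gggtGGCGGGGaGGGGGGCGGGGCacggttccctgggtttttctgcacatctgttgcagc
MIR2340: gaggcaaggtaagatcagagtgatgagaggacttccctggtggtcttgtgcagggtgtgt
MIR2304: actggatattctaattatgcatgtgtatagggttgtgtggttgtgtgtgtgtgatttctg
Of the 60 bases, 35 are capitals in MIR2374, 16 in MIR2436 and 19 in MIR2305, while MIR2340 and MIR2304 hold none.

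The next set holds the 4 members that were at least 2-fold higher on the high-fertile array, under the same rule for capitals. They lay at chr25:3560922-3560997 on the plus strand (MIR2383), chr20:39285911-39285980 on the minus strand (MIR2360), chr1:80395799-80395884 on the minus strand (MIR28) and chr19:18311025-18311105 on the minus strand (MIR193A), on Btau_4.0.
MIR2383: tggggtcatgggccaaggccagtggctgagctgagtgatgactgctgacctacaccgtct
MIR2360: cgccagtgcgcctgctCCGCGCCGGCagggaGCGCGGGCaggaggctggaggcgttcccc
MIR28: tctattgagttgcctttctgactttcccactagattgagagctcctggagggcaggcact
MIR193A: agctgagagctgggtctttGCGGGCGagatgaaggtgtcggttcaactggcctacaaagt
MIR2383 and MIR28 hold no such run, while 7 bases are capitals in MIR193A and 18 in MIR2360.

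Families of microRNA genes share letters, so their probes can share signal. The let-7 set and the pair MIR17 and MIR20A are shown because they are widely studied and, MIRLET7B apart, were not well above background. The pair MIR1777A and MIR1777B is shown because both were bright. Capitals mark runs of at least 10 bases that a probe has in common with another of its set.
MIRLET7A-3: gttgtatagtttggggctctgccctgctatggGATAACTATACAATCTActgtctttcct
MIRLET7B: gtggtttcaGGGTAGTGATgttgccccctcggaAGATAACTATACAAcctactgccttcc
MIRLET7D: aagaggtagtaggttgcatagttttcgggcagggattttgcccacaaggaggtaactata
MIRLET7F-1: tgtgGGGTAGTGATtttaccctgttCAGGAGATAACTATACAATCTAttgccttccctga
MIRLET7G: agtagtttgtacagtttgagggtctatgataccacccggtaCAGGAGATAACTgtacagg
MIR17: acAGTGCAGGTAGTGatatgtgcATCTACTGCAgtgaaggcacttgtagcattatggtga
MIR20A: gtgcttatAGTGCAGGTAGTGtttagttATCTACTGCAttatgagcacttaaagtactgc
MIR1777A: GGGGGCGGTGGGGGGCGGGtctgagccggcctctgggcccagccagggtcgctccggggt
MIR1777B: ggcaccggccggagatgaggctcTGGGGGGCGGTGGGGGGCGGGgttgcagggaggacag
The longest run that MIR1777A and MIR1777B share is 19 bases. Of all members, 39 shared a run of at least 16 bases with another member's probe in the same orientation. With a probe for another transcript 37 members shared such a run in the same orientation, 10 of them measured on both arrays.

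Most microRNA gene probes were not well above background in sperm RNA of either group. A probe was called measured on an array when each of its spots was flagged as well above background. Of the 456 members 121 were measured on both arrays, 16 on the high-fertile array alone, 8 on the low-fertile array alone and 311 on neither. The share measured on both arrays was 26.5%, beside 27.6% of all probes on the array. On the high-fertile array 30.04% of the members were measured, beside 31.7% of all other probes. On the low-fertile array the shares were 28.3% and 31.5%. Members thus reached the call about as often as the other probes when nothing else was taken into account.

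**Figure D1:**
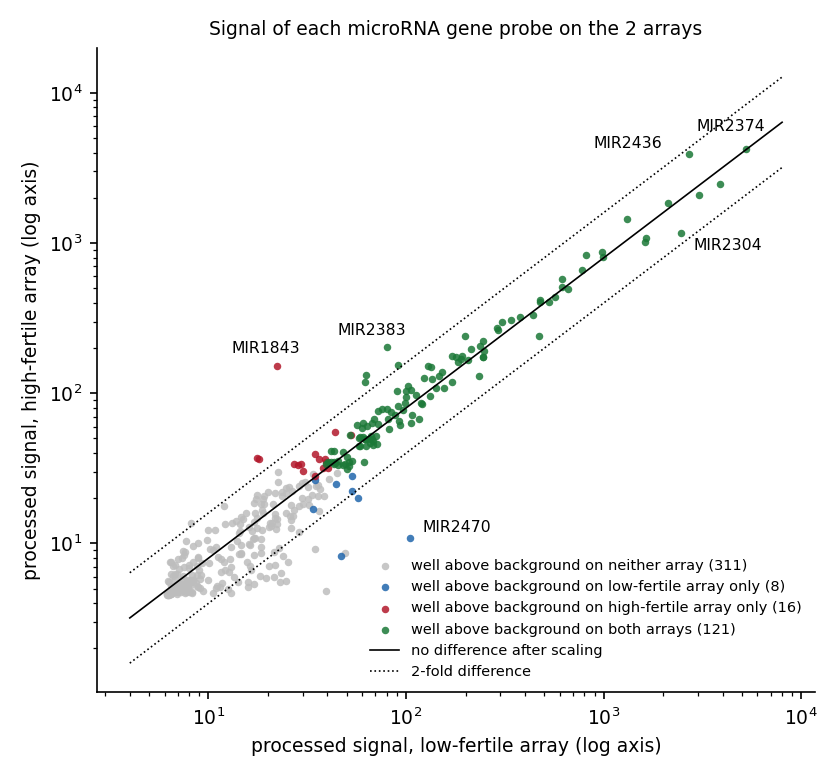
Processed signal of each microRNA gene probe on the low-fertile array (horizontal, log axis) and the high-fertile array (vertical, log axis), coloured by where the probe was well above background; the lines mark no difference and a 2-fold difference after scaling. The 311 probes measured on neither array gather at the low end, and of the 121 measured on both, 4 lie above the upper 2-fold line and 0 below the lower one.

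The measured members covered a wide range of signal. On the high-fertile array their processed signal ran from 31.5 to 4204 with a median of 94.1, and on the low-fertile array from 39.3 to 5268 with a median of 99.9. Members measured on neither array had medians of 5.74 and 8.29. The 308 negative control spots had medians of 4.89 and 6.67 and 95th percentiles of 5.71 and 8.42, so those members lay low but not all at the level of the controls. On each array 9 members had a signal above 1000. Of the measured ones 22 for high and 27 for low fertility were within 2-fold of the lowest signal that any probe well above background had. Over all measured probes the median signals were 68.8 and 90.2. With probes that dim on either array left out, 91 of the 120 microRNA gene names measured on both arrays stayed, beside 7692 of all 11590.

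Detection of the microRNA gene probes went with their GC content. The median GC content was 60% among the 121 members measured on both arrays and 45% among the 311 measured on neither, and 95 of the former (78.5%) but 66 of the latter (21.2%) had a GC content of at least 55%. Of 142 members with a GC content under 45%, 7 were measured on both arrays (4.93%). From 45 to under 55% they were 19 of 139 (13.7%), from 55 to under 65% they were 54 of 121 (44.6%), and at 65% and over 41 of 54 (75.9%). The share rose with each class.

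Other probes showed the same order with a less steep rise. Of all other probes 17.2% were measured in the lowest class, 29.7% and 48.7% in the middle classes and 68.4% in the highest. Below 55% GC the microRNA gene probes were thus measured less often than other probes of like GC content, and in the highest class the member share was the larger. The 7174 custom probes for other transcripts, which were cut from database entries in the same way and had 14347 spots, had shares of 9.74%, 25.8%, 47.9% and 66.9%. Beside these too the member share was lower below 55% GC and higher in the highest class. MicroRNA gene probes had a median GC content of 48.3% beside 45% for other probes. With all other probes weighted to the GC classes of the members, their share came to 37.5%, and the ratio of the member share to it to 0.708, against 0.961 without weighting. The number of spots was not matched in either ratio.

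**Figure D2:**
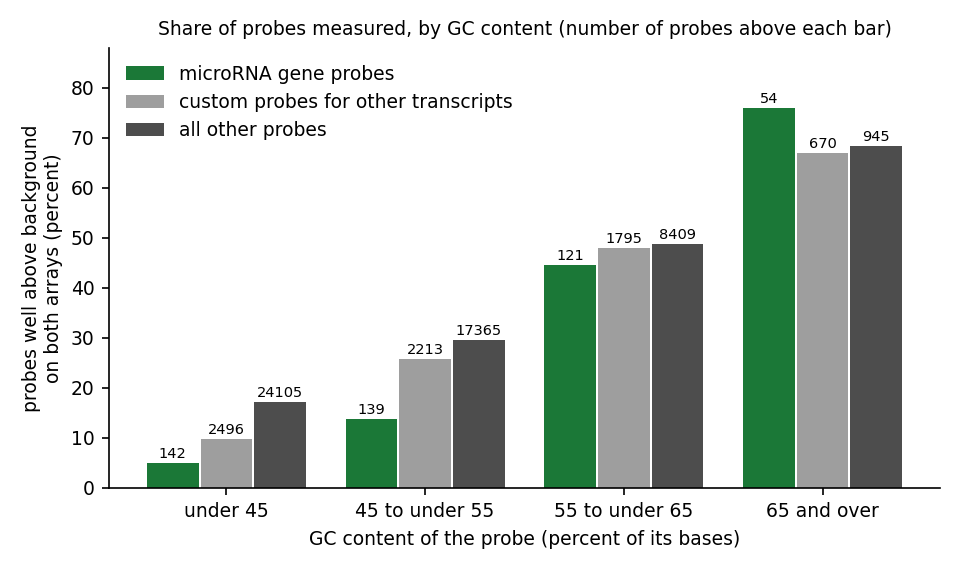
Percent of probes well above background on both arrays in 4 classes of probe GC content, for the microRNA gene probes, for the custom probes for other transcripts and for all other probes, with the number of probes above each bar. The member share rises from 4.93% to 75.9%, lies below that of the other probes in the first 3 classes and above it in the last.

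Hairpin probes can also fold on themselves. The minimum free energy of the probe folded as RNA at 37 °C had a median of -16.55 kcal per mol over the members and -9.6 over other probes, so that members folded more stably. Weighted to the folding energy classes of the members, the share of other probes was 35.9% and the ratio 0.740. With GC content and folding energy both matched, a weighting chosen after the data were seen, the share was 32.7% and the ratio 0.812. Within the class of 45 to under 55% GC, 5 of 76 members (6.58%) with a folding energy of -15 or lower were measured, beside 14 of 63 (22.2%) of those above it. In the class of 55 to under 65% the shares were 44.4% of 99 and 45.5% of 22. Under 45% GC they were 2.33% of 43 and 6.06% of 99, and at 65% and over 74% of 50 and 100% of 4. The gap was thus least in the class of 55 to under 65%. A run of 4 G was present in 88 members, of which 43.2% were measured, beside 22.6% of the 368 without one. By GC class the shares with and without such a run were 0% and 5.56% under 45%, 22.2% and 12.4% from 45 to under 55%, 55.6% and 40% from 55 to under 65%, and 77.8% and 75% at 65% and over.

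The members with the highest signals were mainly cattle genes of high number, names given in order of registration and mostly later than the conserved microRNAs. Signals of different probes depend on the probe as well as on its RNA, so this is an order of signals. MIR2374 had the highest signal of any member on both arrays, with 4204 for high and 5268 for low fertility. MIR2436 had 3928 and 2704, MIR2340 had 2459 and 3888, and MIR2305 had 2099 and 3041. All 4 lay far above the negative control spots on either array.

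Conserved genes among the 10 brightest were MIR328, MIR935 and MIR615. MIR328, whose hairpin lies in ELMO3, had 1848 and 2116. The hairpin probe of MIR935 had 1444 and 1320, while the protein-transcript probe of that name had 45.3 and 68.0, so the 2 probes under this name disagreed in direction, by a log2 difference of 0.46 and of -0.26. MIR615, which lies within the HOXC5 gene of the HOXC cluster, had 874 and 983. The other members of the 10 were MIR2304 with 1167 and 2460, MIR1777B with 1080 and 1646, and MIR2324 with 1015 and 1624. Across the 121 measured probes, GC content and the mean log2 signal had a Spearman rho of 0.40, and across 14033 measured probes for other transcripts one of 0.01. These are descriptions across probes that share both arrays.

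The shared run of MIR1777A and MIR1777B went with like signals. MIR1777A had 808 for high and 995 for low fertility, and MIR1777B 1080 and 1646. A shared run did not always go with signal in both: MIR129-1 had 58.0 and 82.3 while MIR129-2, with 21 bases in common, had 14.5 and 14.9, not well above background. Likewise MIR2284U had 33.0 and 51.2 while MIR2284R, with 20 bases in common, had 5.16 and 7.41.

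Few of the microRNA genes that are widely studied in sperm, testis or other tissue were measured. The let-7 genes, known for restraint of growth and cell division genes, had 5 probes. MIRLET7B was measured on both arrays, with 41.4 for high and 43.2 for low fertility, and a log2 difference of 0.26 after scaling. MIRLET7D had 4.94 and 6.74 and MIRLET7F-1 5.24 and 7.59, at the level of the negative controls. MIRLET7A-3 with 16.06 and 24.7 and MIRLET7G with 7.48 and 25.3 were not well above background either. A further list of 39 names held 32 that the array carried, with 38 probes, of which 4 were measured on both arrays, 1 on the high-fertile array alone and 33 on neither. Of all members 26.5% were measured on both arrays, but 4.93% of those under 45% GC and 13.7% from 45 to under 55%. The listed probes were not compared with members of like GC content, so the low count is not a result about these genes.

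**Figure D3:**
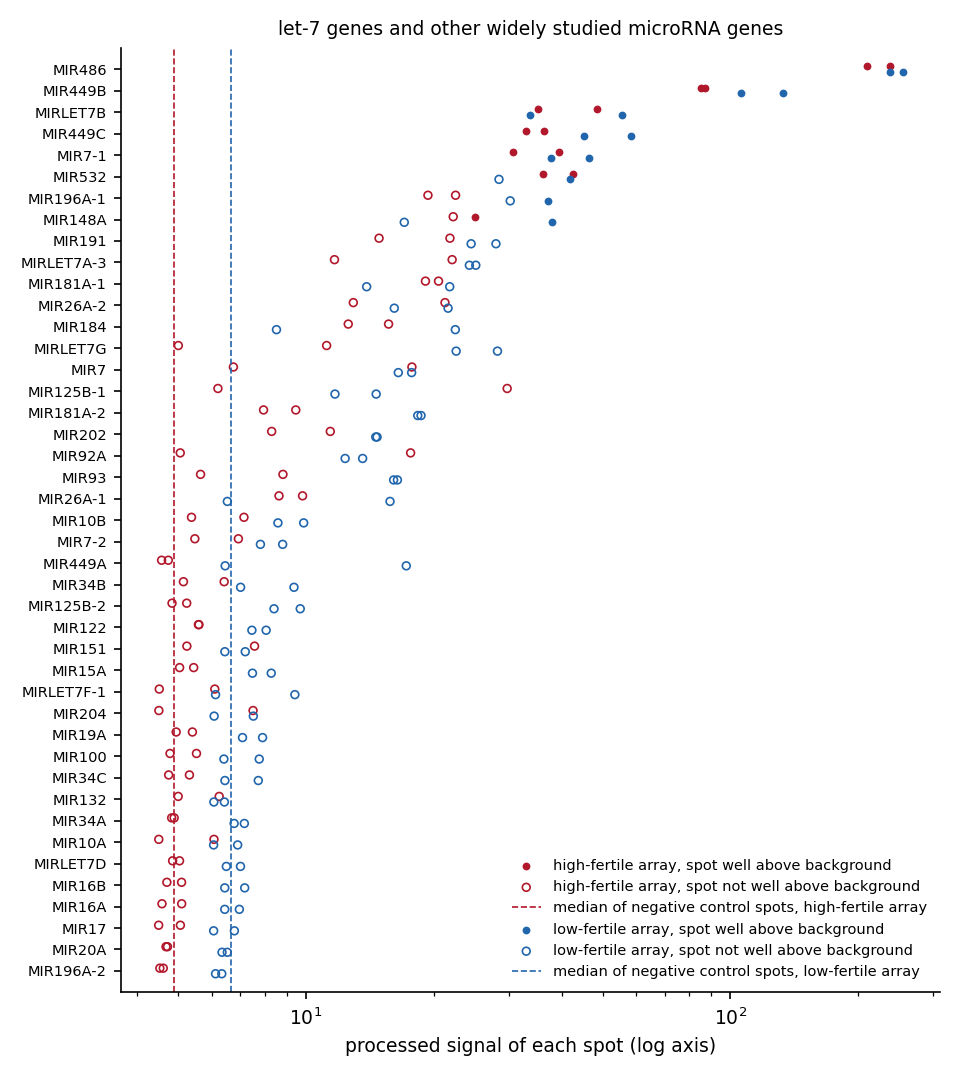
Processed signal of each spot (log axis) for the let-7 genes and the listed widely studied microRNA genes, on the high-fertile (red) and low-fertile (blue) array; filled points are spots well above background and dashed lines the medians of the negative control spots. MIR486, MIR449B, MIRLET7B, MIR449C and MIR7-1 are filled throughout, and most of the others lie near the dashed lines.

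The MIR34 and MIR449 genes have a common seed and act together in germ cells and multiciliated cells of the mouse, and miR-34c is abundant in mouse sperm. MIR34A, MIR34B and MIR34C were not well above background, at 4.86 to 5.74 on the high-fertile and 6.96 to 8.11 on the low-fertile array. MIR449B had 86.1 and 119 and MIR449C 34.6 and 51.4, while MIR449A of the same cluster had 4.65 and 10.5, not well above background. MIR449D, at another locus, had 53.0 and 52.5 and was measured on the high-fertile array alone, as 1 of its spots on the low-fertile array was not well above background. Thus members of 1 family were split between measured and not measured.

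MIR486, which lies in ANK1 and is known from erythroid and muscle cells, had 223 and 246. MIR7-1, beside MIR1179 on chromosome 21 of Btau_4.0, had 34.9 and 41.9, whereas MIR7 and MIR7-2, the latter within HNRNPK in RefSeq, were not well above background. MIR532 had 39.3 on the high-fertile array and 34.5, not well above background, on the low-fertile array. MIR16A, MIR16B, MIR10A, MIR10B, MIR100, MIR122, MIR151, MIR191 and MIR202 were among the 33 that were measured on neither array. MIR191 was the brightest of these 9, with 18.0 and 26.2.

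MicroRNA genes often lie in clusters that are transcribed as 1 unit. Of the 412 probes with a position, 112 lay in 40 clusters of at least 2 hairpins on the same strand within 10000 bases of each other, and 17 of the 112 (15.2%) were measured on both arrays, beside 96 of 300 lone hairpins (32.0%). The median GC content was 45% in clusters and 53.3% outside. Within the class of 55 to under 65% GC, 7 of 23 clustered and 46 of 97 lone members were measured, 30.4% and 47.4%. In the class of 45 to under 55% the shares were 9.30% and 11.6%, and at 65% and over 5 of 5 clustered members were measured and 73.5% of the 49 lone ones.

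The largest cluster, at chr21:66001965-66043636 on the plus strand of Btau_4.0, lies in the imprinted DLK1-DIO3 region known from mammals and held 22 probes, of which MIR1193 and MIR541 were measured on both arrays. MIR1193 had 35.2 and 45.01, and MIR541 had 44.3 and 58.2. A neighbouring cluster of 5 at chr21:65852824-65870198 had 3 measured members, MIR665, MIR433 and MIR432, with 33.9 to 77.6 on the high-fertile and 39.3 to 96.3 on the low-fertile array. The 4 probes of the MIR17 cluster at chr12:64665102-64665880, known for its role in cell proliferation, were measured on neither array, with 4.70 to 9.44 and 6.41 to 12.97. MIR192 and MIR194-2, a pair at chr29:44934706-44935011, were both measured, with 174 and 180 for MIR192 and 35.3 and 53.0 for MIR194-2.

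By name, 72 of 219 members numbered 1000 or higher were measured (32.9%), beside 47 of 231 with lower numbers (20.3%). Their median GC contents were 51.7% and 45%. In the class of 45 to under 55% GC the shares were 23.8% and 8.51%, in that of 55 to under 65% they were 45.5% and 42.6%, and at 65% and over they were 71.8% and 86.7%. The order of high and low numbers was thus not the same in every class.

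A hairpin within a gene could be read from that gene's transcript. RefSeq, whose table gave no strand here, placed 294 members within a protein-coding gene, 44 within a long noncoding RNA gene and 111 outside of either, and 31.0%, 15.9% and 16.2% of these were measured on both arrays. Their median GC contents were 50.8%, 46.7% and 45%. In the class of 45 to under 55% GC 15 of 84 members within a protein-coding gene and 1 of 36 outside were measured, and in the class of 55 to under 65% the shares were 44.3% and 47.4%. Under 45% GC 6 of 84 and 0 of 44 were measured, and at 65% and over 81.6% of 38 and 66.7% of 12.

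Over all GC classes together, hairpins with a measured host gene were not measured more often than the others. Of 252 pairs of a hairpin and a host with a probe on the array, formed by 249 members, the host was measured in 126, and the hairpin in 38 of these (30.2%). In the other 126 pairs, whose host was not measured, the hairpin was measured in 43 (34.1%). With and without a measured host the shares were 6.06% and 8.89% under 45% GC, and 18.9% and 25% from 45 to under 55%. From 55 to under 65% they were 38.5% and 51.2%. At 65% and over the order turned, with 82.4% of 17 pairs and 78.6% of 14. In 38 pairs with both measured, the differences between the arrays had the same sign in 21 and a Spearman rho of 0.03. Of 60 listed textbook pairs, 41 were found on the array under the listed spelling with the hairpin placed in the listed host by RefSeq. Pairs spelled otherwise in the list, such as MIR26A-1 in CTDSPL and MIR26A-2 in CTDSP2, were not counted. Of the 41 pairs, 4 had both measured. MIR185 had a log2 difference of 0.14 beside 0.06 for TANGO2, MIR483 one of 0.28 beside -0.07 for IGF2, MIR26B one of 0.24 beside 0.57 for CTDSP1, and MIR335 one of -0.00 beside 0.29 for MEST.

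Between high and low fertility most measured microRNA genes differed little once each array was scaled to its 75th percentile. The comparison asks how sperm RNA differs between bulls of high and of low fertility, and for each gene it gives the log2 signal scaled to the 75th percentile of the array, high-fertile minus low-fertile. Of 120 gene names measured on both arrays 4 were at least 2-fold higher on the high-fertile array, beside 1.88% of the 11590 gene names so measured, and 0 were at least 2-fold lower, beside 2.44%. Both counts rest on the scaling: with the spike-in controls as reference they were 1 higher and 6 lower. Of the 121 probes 110 differed by less than 0.5 on the log2 scale under the main scaling. That share was not taken over all measured probes, so it is not a result about the members. The SD of the difference was 0.36 over the 121 probes and 0.49 over all measured probes. The median over the 120 genes was 0.09 and that over all 11590 was -0.00. With the spike-in scaling the medians were -0.51 and -0.60.

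MIR2383, a cattle gene whose hairpin lies within DNASE1 in RefSeq, showed the largest difference. Its spots read 191 and 213 on the high-fertile array and 80.7 and 80.4 on the low-fertile array. After scaling it was 3.14-fold higher on the former, a log2 difference of 1.65 that was 1.57 and 1.73 by spot, and the spots of the arrays did not overlap. No probe of DNASE1 was measured. MIR2383 stayed at least 2-fold higher in all 14 settings that give a difference, the main one included. Several of these could not change it: it has a single probe that passed each filter, so filters and ways of averaging probes returned the main value. The log2 difference was lowest with normexp background correction, at 1.11, and with spike-in scaling, at 1.05.

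MIR2360 had spots of 128 and 137 on the high-fertile array and of 54.5 and 72.6 on the low-fertile array, which was 2.63-fold higher after scaling. Its probe had a GC content of 80%. With the running median of all probes of like GC content subtracted, the log2 difference fell from 1.40 to 0.92, under the 2-fold line.

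MIR28, a conserved gene within the LPP gene in RefSeq, had spots of 126 and 112 on the high-fertile array and of 59.5 and 64.7 on the low-fertile array, a 2.39-fold difference with no overlap of spots. LPP itself had a log2 difference of -0.17, in 1 of 4 probes measured. MIR193A had spots of 133 and 178 and of 77.0 and 107, a 2.12-fold difference in which both pairs of spots agreed, at 1.12 and 1.05 on the log2 scale. With normexp background correction MIR2360, MIR28 and MIR193A had log2 differences of 0.79, 0.71 and 0.68, and with spike-in scaling of 0.80, 0.66 and 0.49. MIR2436, the next below the line, was 1.82-fold higher, a log2 difference of 0.87.

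**Figure D4:**
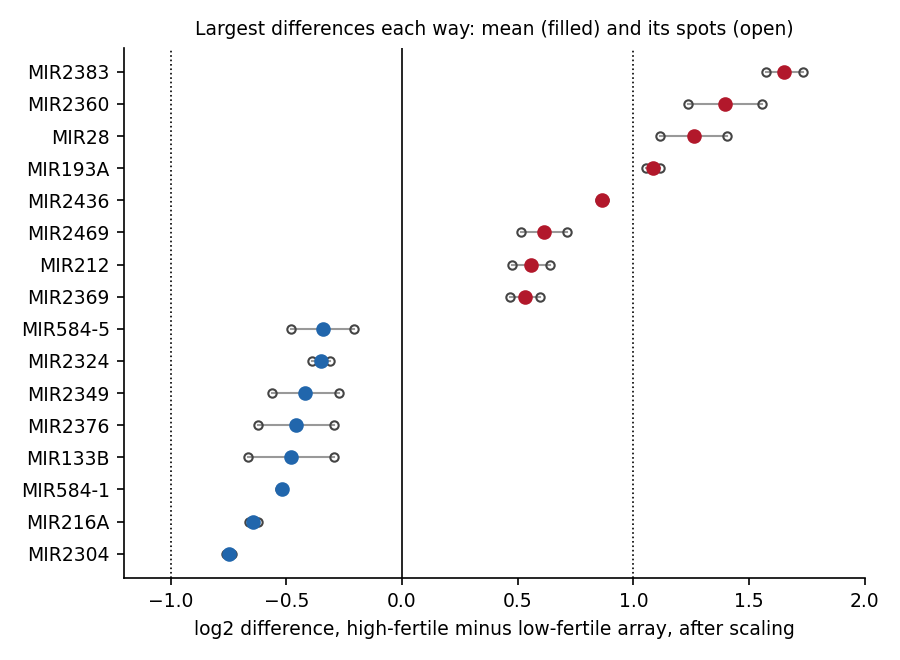
The 8 largest log2 differences between the arrays in each direction among microRNA genes measured on both, high-fertile minus low-fertile after scaling; filled points are means, open points the 2 spots and dotted lines a 2-fold difference. MIR2383, MIR2360, MIR28 and MIR193A lie beyond the upper line with both spots, and no gene lies beyond the lower one.

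The other genes with the largest higher values were MIR2469, MIR212 and MIR2369. MIR2469 had signals of 242 and 198, MIR212, which lies beside MIR132 and is known as a target of CREB, 151 and 129, and MIR2369 104 and 90.2. Their log2 differences were 0.61, 0.56 and 0.53. MIR132 itself had 5.59 and 6.24 and was not well above background.

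Among genes lower on the high-fertile array MIR2304 came first, with spots of 1204 and 1132 against 2558 and 2366, a 1.68-fold difference and a log2 difference of -0.75. With quantile normalization it was -1.03 and with spike-in scaling -1.35, past the 2-fold line. MIR216A, known from the pancreas, had signals of 240 and 470 and a log2 difference of -0.64. MIR584-1 had 130 and 235 and a log2 difference of -0.52, and its probe had 20 bases in common with a probe for another transcript, which read 33.5 and 71.2. It also had 18 bases in common with a probe that read 39.7 and 50.5. With a further probe, which read 4.83 and 21.1 and was not measured on both arrays, it had 17.

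MIR133B, a muscle microRNA gene that lies beside MIR206, had 35.04 and 61.3. MIR2376 within TAPBP had 67.6 and 116, MIR2349 within CYTH1 63.4 and 106, MIR2324 within SF3B3 1015 and 1624, and MIR584-5 31.5 and 50.1. Their log2 differences ran from -0.48 for MIR133B to -0.34 for MIR584-5. None of these 8 genes came to a 2-fold difference under the main scaling.

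The difference between the arrays moved with GC content, among members as among other probes. Of the 121 measured member probes 71 lay above 0 and 50 below, 58.7% above beside 49.2% of all measured probes; the median of the members was below 0 with the spike-in scaling. The median log2 difference of the members was -0.12, -0.13, 0.04 and 0.16 from the lowest to the highest GC class, and that of other probes -0.08, -0.06, 0.05 and 0.29. Across probes, GC content and the difference had a Spearman rho of 0.35 for 121 members and 0.20 for 14033 others. With the running median of all probes of like GC content subtracted, the median of the member genes was -0.04 and 3 genes were at least 2-fold higher.

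**Figure D5:**
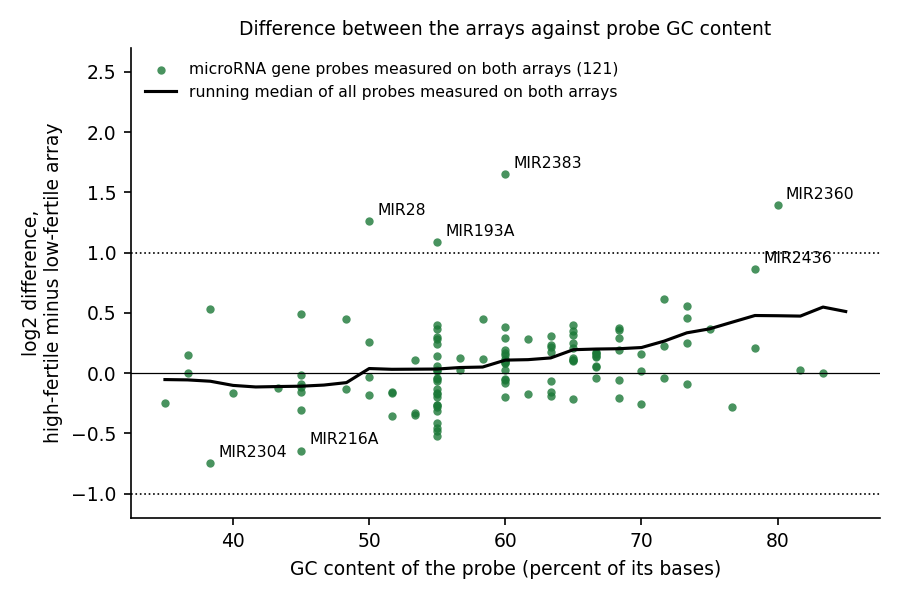
Log2 difference between the arrays (high-fertile minus low-fertile, after scaling) against the GC content of the probe for the 121 microRNA gene probes measured on both, with the running median of all measured probes as a line and a 2-fold difference as dotted lines. The line lies below 0 at 45% GC and climbs toward the right, where MIR2360 and MIR2436 stand.

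Of the microRNA genes measured on a single array few stood far from the other array. The fold is a lower bound, taken against the higher of the probe's own signal on the other array and the lowest signal there of any probe well above background. Of 16 microRNA genes measured on the high-fertile array alone, 1 had a bound of at least 2-fold, beside 7.3% of the 1369 gene names of that array alone. Of 8 measured on the low-fertile array alone 2 did, beside 16.7% of the gene names of that array alone, which were also 1369.

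MIR2470 had spots of 96.9 and 114 on the low-fertile array and of 11.7 and 10.001 on the high-fertile array, where it was not well above background, so it was at least 3.71-fold lower on the latter. MIR2356 had 48.5 and 67.6 against 25.3 and 16.01, at least 2.02-fold lower. The spots of the arrays did not overlap for either gene. MIR2468, MIR2335 and MIR2301 followed with bounds of 1.88-fold, 1.65-fold and 1.502-fold.

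MIR1843 had the largest bound on the high-fertile array, at least 6.30-fold. Its spots there read 27.8 and 836, against 28.7 and 17.2 on the low-fertile array, so the value rests on 1 spot. That spot lay in a patch where 7 of its 8 neighbours were also at least 2-fold higher on the high-fertile array, and with such spots left out no gene on that array alone had a bound of 2-fold. MIR2467, MIR2357, MIR2384-1 and MIR532 followed with bounds of 1.58-fold, 1.53-fold, 1.505-fold and 1.43-fold. The probe of MIR2384-1 had 38 bases in common with a probe for another transcript.

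Genes that make microRNAs or carry out their effect were described from a list of 57 names. It holds both the older and the newer symbol of some genes, as with RNASEN and DROSHA, so a name not found is not always a gene missing from the array. Of the names 46 were on the array, and of these 19 were measured on both arrays, 4 on a single array and 23 on neither. Of the 19, 0 reached a 2-fold difference in either direction, 7 lay above 0 and 12 below, and the median was -0.10 on the log2 scale, beside -0.00 over all genes. Of the processing enzymes, DROSHA, which cuts the primary transcript, had signals of 46.0 and 48.5 and a log2 difference of 0.25. Its partner DGCR8 had 55.5 and 59.9 and a log2 difference of 0.22. DROSHA rested on 1 of 3 probes and DGCR8 on 1 of 2. Neither of the 2 probes for DICER1 was well above background on any array.

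TARBP2, the partner of DICER1, had 31.2 and 60.1 and a log2 difference of -0.62. SRRT, which links capped transcripts to processing, had the lowest value of the list at -0.85, with its 2 measured probes apart by an SD of 0.96. Among the effectors, AGO2 had 28.2 and 37.8 and a log2 difference of -0.10, while AGO1 and AGO3 were measured on neither array. CNOT3 and CNOT7, subunits of the deadenylase complex, had log2 differences of 0.67 and -0.63, and PAN3, of another deadenylase, had one of 0.49. The 2 probes of CNOT7 were apart by an SD of 0.62, about the size of its value. CNOT3 and AGO2 each rested on 1 of 3 probes, PAN3 on 1 of 2 and TARBP2 on 1 of 5. The last of those named, GEMIN4 and MOV10, which are found with Argonaute proteins, had log2 differences of 0.30 and -0.44, from 2 of 3 and 1 of 4 probes.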

How the data were processed

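The 2 arrays were single-colour cattle arrays of sperm total RNA, grouped by the fertility entry of the labels. The deposited scanner tables hold spot intensity, not logged. The software was, per the file headers, Agilent Feature Extraction 11.5.1.1, with background subtracted and spatial trend removed within each array. The deposited series matrix holds log2 values: 98.6% of the probes equalled the log2 processed signal less 5.12 (high-fertile) or 5.55 (low-fertile) within 0.01, so its scale and direction are known, the basis of its centring is not, and its column medians were -1.43 and -1.37.

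Here, spots flagged as outliers (9) were left out, which lost 2 probes, and spots of a probe and probes of a gene were averaged as log2. Each array was scaled to its 75th percentile over the 14154 probes well above background on both (148.6 and 186.3). Calls were differences of at least 2-fold. No test was possible with 1 array per group. The number of arrays limits the precision. Folding energies came from RNAfold 2.7.2 and normexp and quantile values from limma 3.58.1 (R 4.3.3, Python 3.11.15). Hairpin positions are those in the files' descriptions (Btau_4.0), and the RefSeq table (ARS-UCD2.0) gave names and containing genes only. Differences were checked on simulated data. A planned comparison with other small structured RNAs was left out, since no usable probes were found, and mature sequences were not used here. Members, lists and the naming rule were chosen with earlier results of these data known. The rule names the 8 largest differences per direction, the 10 brightest, the 5 largest bounds per array, the let-7 genes and the listed widely studied genes, and up to 4 biogenesis genes per direction. The other genes named (among them DGCR8, DROSHA, AGO2 and members of the clusters and shared runs) were chosen after their values were seen.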

Additional observations from a re-analysis of the deposited data

How the results depend on the processing

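The 14 settings tried besides the main one left the direction of each 2-fold call in place. Ways of averaging probes could not change the difference of a gene with 1 probe, nor could a filter that it passed. The 4 genes at least 2-fold higher became 1 with normexp background correction, 1 with spike-in scaling, 8 with no filter on dim probes and 0 at a 4-fold threshold. The 0 genes at least 2-fold lower became 1 with quantile normalization, 1 with loess on the mean signal, 6 with spike-in scaling and 22 with no filter on dim probes. Among all gene names, normexp left 73 higher and 48 lower of the 218 and 283, spike-in scaling gave 34 and 1788, no filter gave 771 and 1730, and the 4-fold threshold left 11 and 21. The 75th percentile over all probes moved the median of all genes to 0.10 and the series matrix values to 0.10, so differences shift together under scaling. The median of the microRNA genes was -0.51 with spike-in scaling, -0.13 with no filter and -0.26 where membership rested on the gene name alone, which leaves 1 probe. The median of the biogenesis genes was -0.70 with spike-in scaling. Genes on the high-fertile array alone with a bound of 2-fold fell from 1 to 0 with spots in patches left out. Those on the low-fertile array alone went from 2 to 0 with normexp, 1 with the median as scale, 1 with the 75th percentile over all probes, 6 with spike-in scaling and 0 at a 4-fold threshold. The share of members called measured was 52.6% by a test of signal over background alone (62.6% of other probes), 60.1% above the 95th percentile of the negative controls (63.3% of other probes) and 100% of the 1 probe named by gene name alone. The ratio of shares was 0.708, 0.740 and 0.812 with GC content, folding energy or both matched. The number of spots per probe was not matched in any of these. Except where the construction shows it, the cause was not tested. The planned match of probes to hairpin sequences was not run. No paired analysis was possible because each group has 1 array. Signal over background limits all calls near the background.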
